A study of Homo sapiens with 8 samples.

Results

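*HES4* and *ISG15* are neighbouring genes on the short arm of chromosome 1, and were taken by name, as 2 of the 92 genes whose expression was captured in K562 cells after graded changes in the dosage of *GFI1B*, *MYB*, *NFE2* or *TET2*. K562 is an established human erythroleukaemia cell line, and 2 derivatives of it were used, a CRISPRi line, which represses the targeted gene, and a monoclonal CRISPRa line, which carries dCas9-VPR and activates it, with 1 culture of each. Both lines received the same lentiviral library of sgRNAs, including non-targeting control (NTC) sgRNAs, and were collected on day 8 after transduction in a pooled single-cell experiment. The values are the log2 fold change, log2(FC), of each gene in the cells with 1 sgRNA against the pooled NTC cells of the same line, for 181 perturbations, meaning 1 sgRNA in 1 line. Dosage is the log2(FC) of the targeted gene itself, here called the *cis* gene, in the same cells. The sgRNAs of the *cis* genes lie on chromosomes 9, 6, 12 and 4, so that every response of *HES4* and *ISG15* on chromosome 1 is a *trans* response.

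*HES4* encodes a basic helix-loop-helix repressor of the hairy and enhancer of split family, known as a target of Notch signalling. *ISG15* encodes a ubiquitin-like protein that is joined to other proteins in the process called ISGylation, and is among the genes best known for their induction by type I interferons. Of the *cis* genes, *GFI1B* encodes a zinc-finger repressor of erythroid and megakaryocytic cells, *MYB* a transcription factor of haematopoietic progenitors, and *NFE2* a basic leucine zipper factor needed for platelet formation. *TET2* encodes a dioxygenase that oxidizes methylated cytosine, and served as the control gene. The captured panel was chosen by the authors largely from genes known to respond to *GFI1B* or *NFE2*, which bears on how many genes of it respond here.

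The 2 genes are transcribed away from each other. In GENCODE 44 on GRCh38, *HES4* (ENSG00000188290) covers chr1:998962-1000172 on the minus strand and *ISG15* (ENSG00000187608) covers chr1:1001138-1014540 on the plus strand, which leaves 965 bp between them. That short gap belongs to the long *ISG15* transcripts, ISG15-202 from 1001138 and ISG15-201 from 1001145. The third, ISG15-203, starts at 1013497, as the RefSeq gene does, and its start lies 13400 bp from the RefSeq start of *HES4* at 1000097. A processed pseudogene and a lncRNA on the minus strand lie within *ISG15*. The capture panel held 8 baits for *HES4* and 7 for *ISG15*, all of which matched transcripts of their own gene exactly and none of which matched a transcript of another gene. Of these baits, 3 of *HES4* and 3 of *ISG15* lie in every annotated transcript of their gene. The deposited values are per gene, so the 2 starts of *ISG15* cannot be told apart in them. How evenly transcripts from each start were captured was not tested.

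**Figure D1:**
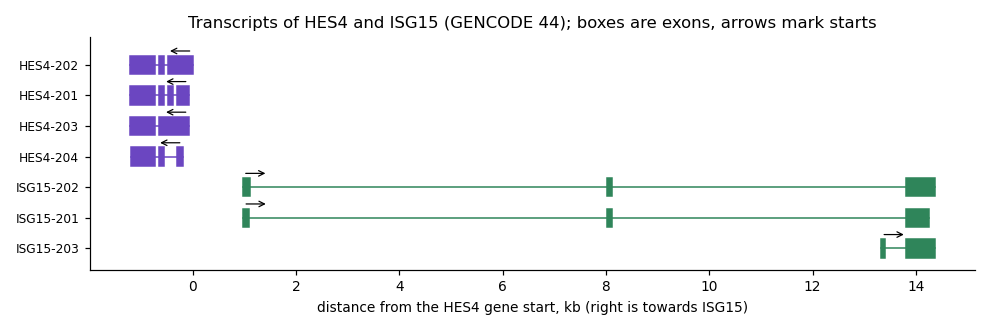
Annotated transcripts of *HES4* (purple) and *ISG15* (green), with the horizontal axis in kb from the *HES4* gene start, boxes for exons and arrows for the direction of transcription. The 4 *HES4* transcripts and the 2 long *ISG15* transcripts start on either side of a gap of 965 bp, whereas ISG15-203 starts near the far end of *ISG15*.

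The sequences before the RefSeq starts are shown because they hold what each gene is best known for, and they differ. The stretch of *HES4* runs from 250 to 71 bases before the start, chr1:1000168-1000347 on the minus strand, and its last 5 bases fall in the first exon of HES4-202. The stretch of *ISG15* is the 250 bases before the start of ISG15-203, chr1:1013247-1013496 on the plus strand, and is intronic in ISG15-202 and ISG15-201. Both are RefSeq sequences of GRCh38.p14. Capitals mark GTGGGAA, the core of the site of RBPJ, the DNA-binding protein of Notch signalling, and AATC on the reverse strand, the core of GFI1B and GFI1 sites, in *HES4*, and a pair of overlapping matches to GAAA, any 2 bases and GAAA, the core of the interferon-stimulated response element, in *ISG15*.
HES4 promoter: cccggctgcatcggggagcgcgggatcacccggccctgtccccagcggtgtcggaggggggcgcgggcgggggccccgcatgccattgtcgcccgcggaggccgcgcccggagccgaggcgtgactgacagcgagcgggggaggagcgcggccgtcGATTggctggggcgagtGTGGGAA
ISG15 promoter: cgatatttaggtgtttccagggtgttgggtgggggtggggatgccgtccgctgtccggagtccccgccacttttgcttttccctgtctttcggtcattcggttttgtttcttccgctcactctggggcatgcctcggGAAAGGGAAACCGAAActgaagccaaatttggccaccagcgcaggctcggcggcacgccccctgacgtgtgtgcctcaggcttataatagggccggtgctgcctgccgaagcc

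The motifs were searched on both strands of the 300-base RefSeq windows, from 250 bases before the start. GTGGGAA lies at -77 to -71 of *HES4* and is held by 6.25% of the 35116 promoters of the table, and the spaced GAAA pair begins at -113 and at -107 of *ISG15* and is held by 3.57%. The short cores of the *cis* factors are common letters. AATC is held by 69% of promoters, with 1 match in *HES4* and 0 in *ISG15*, and AACNG, the MYB core, by 77.2%, with 1 match in *HES4* and 3 in *ISG15*, of which 2 overlap the interferon element. TGANTCA, the core of NFE2 sites, is held by 7.71% of promoters and by the window of neither gene. The starts of the long *ISG15* transcripts lie outside these windows and were not searched. These are matches of letters only, and binding was not measured.

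The sgRNAs below are the unmodified ones that lowered their *cis* gene most in CRISPRi and raised it most in CRISPRa, among those with at least 30 cells, and they span most of the dosage ranges on which the results rest. They are given from 5′ to 3′ as deposited, with the PAM in capitals, and each matched hg38 at its place.
GFI1B_8, lowest GFI1B, chr9:132979012-132979034, minus strand, in an intron of GFI1B: ctagcacagtggctcagacgAGG
GFI1B_20, highest GFI1B, chr9:133004178-133004200, plus strand, enhancer outside annotated genes: gctggaaaccgtcacggttaAGG
MYB_14, lowest MYB, chr6:135181383-135181405, plus strand, first exon of MYB: gaaacttcgccccagcggtgCGG
MYB_7, highest MYB, chr6:135181265-135181287, plus strand, before MYB: gtccaaagctctttgtttgaTGG
NFE2_17, lowest NFE2, chr12:54304618-54304640, minus strand, enhancer within an intron of COPZ1: caagcatcggggtaaccgccCGG
NFE2_8, highest NFE2, chr12:54301198-54301220, minus strand, in an exon of COPZ1: ggactcctgggctgaaaaggAGG

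With GFI1B_8, *GFI1B* was at -1.42, *HES4* at -0.47 and *ISG15* at 0.21 in CRISPRi (51 cells). With GFI1B_20, *GFI1B* was at 0.51, *HES4* at 0.28 and *ISG15* at -0.02 in CRISPRa (59 cells). With MYB_14, *MYB* was at -0.94, *HES4* at -0.32 and *ISG15* at -0.15 in CRISPRi (57 cells). Thus *HES4* was below its NTC level with both of these repressing sgRNAs, while *ISG15* was on opposite sides of it. With NFE2_17 in CRISPRi (63 cells), *NFE2* was at -0.81, *HES4* at -0.12 and *ISG15* at 0.27. With NFE2_8 in CRISPRa (248 cells), *NFE2* was at 0.28, *HES4* at 0.08 and *ISG15* at -0.08.

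No perturbation was repeated, so no replicate error exists for single values, and the errors below are over sgRNAs. The sgRNAs of a gene share their target, and p-values measure the spread between sgRNAs of 1 culture per line. The number of cells with an sgRNA ranged from 11 to 567 in CRISPRi (median 86) and from 12 to 495 in CRISPRa (median 79.5), against 536 and 323 NTC cells. UMI counts were not used here, so expression levels and the depth per cell are unknown, and the erythroid identity of the cells could not be checked from levels of marker genes. Where the *cis* gene stayed within 0.1 of its NTC level (52 perturbations), *HES4* had an SD of 0.0713 and *ISG15* an SD of 0.0634, against a median SD of 0.0577 over the 92 genes. In the 16 of them in CRISPRi the SD was 0.0752 for *HES4*, rank 20 of 92, and 0.0499 for *ISG15*, against a median of 0.0448. In the 36 in CRISPRa it was 0.0666 and 0.0684, against 0.0580. These SDs are a measure of how far a single value moves when little has been done to the *cis* gene. They pool sgRNAs with few and with many cells. By *cis* gene the SD of *HES4* was 0.0626 for *GFI1B*, 0.0691 for *MYB*, 0.0508 for *NFE2* and 0.116 for *TET2*.

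Over all 181 perturbations the log2(FC) of *HES4* had an SD of 0.157, rank 31 of 92 genes, and that of *ISG15* an SD of 0.094, rank 50. The lowest and highest *HES4* values were both with *GFI1B* sgRNAs. In CRISPRi its 25 *GFI1B* values ran from -0.64 (GFI1B_24, 38 cells) to 0.05 with a median of -0.21, and 23 lay below 0. In CRISPRa they ran from -0.15 to 0.49 (GFI1B_21, 12 cells) with a median of 0.10, and 21 lay above 0. The ranges of the groups therefore overlapped from -0.15 to 0.05. For *ISG15* the 25 *GFI1B* values in CRISPRi ran from -0.37 (GFI1B_3, 11 cells) to 0.31 (GFI1B_13, 66 cells) with a median of -0.03, which is the widest range of any *cis* gene and line for that gene.

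**Figure D2:**
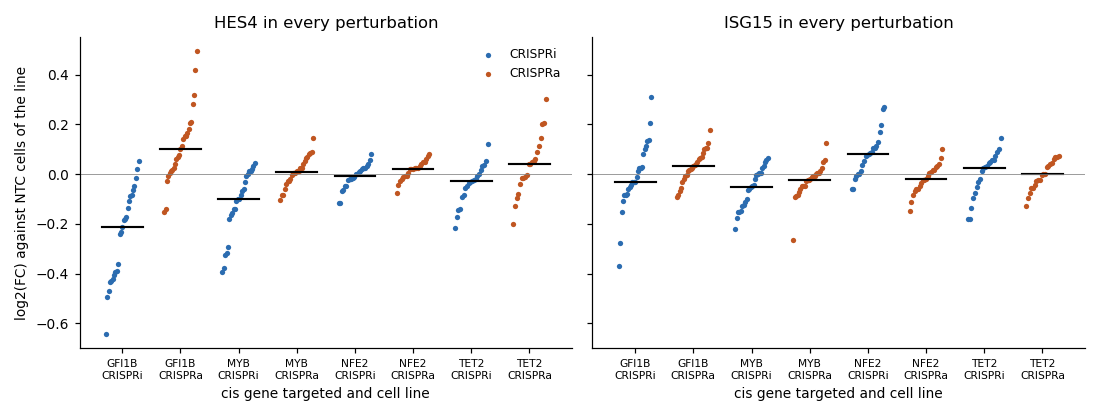
The log2(FC) of *HES4* (left) and *ISG15* (right) in each of the 181 perturbations, grouped by *cis* gene and line, with CRISPRi in blue, CRISPRa in orange, points sorted within a group and a black line at the median. *HES4* spreads most with *GFI1B* sgRNAs, from -0.64 to 0.49, and *ISG15* sits mostly above 0 with *NFE2* sgRNAs in CRISPRi (17 of 22).

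The question for each *cis* gene was how the neighbours changed over its dosage. *HES4* fell as *GFI1B* dosage fell and rose as it rose, by 0.36 ± 0.03 (slope ± SE, log2(FC) per log2 unit of dosage) over the 50 *GFI1B* perturbations (limma slope with Benjamini-Hochberg adjustment over 91 genes, adjusted p = 4.5e-17). In the 11 perturbations in which *GFI1B* was below -1, *HES4* was at -0.42 ± 0.11 (SD) and below 0 in all 11. In the 9 within 0.1 of the NTC level of *GFI1B* it was at -0.03 ± 0.06, and in the 5 with *GFI1B* above 0.3 it was at 0.24 ± 0.15 and above 0 in all 5. On this panel 76.9% of the 91 genes were called on *GFI1B* dosage, so a call alone does not set *HES4* apart. By slope it ranked 8 from the highest and 17 by absolute size.

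The slope of *HES4* on *GFI1B* held in each line, at 0.28 ± 0.03 in CRISPRi (adjusted p = 4.6e-08) and 0.58 ± 0.14 in CRISPRa (adjusted p = 0.0010, limma). The difference between the lines, -0.30 ± 0.14 for CRISPRi minus CRISPRa, passed the threshold (adjusted p = 0.0448), as did the same term for 69.2% of genes. Without the perturbations under 30 cells, which removes the 2 highest *HES4* values, it was -0.17 ± 0.13 (adjusted p = 0.223). Within the range from 1 copy lost to 1 copy gained the slope was 0.48 ± 0.06, whereas below that range, over 11 CRISPRi perturbations, it was 0.05 ± 0.16 (adjusted p = 0.896). A sigmoid described the response better than a line by 5.81 units of AIC, as it did by more than 2 units for 78.9% of 90 genes. A quadratic curve, added after the values were seen, was better than a line by 8.00 units. The upper asymptote of the sigmoid, 0.96, lay above every observed *HES4* value, so no upper plateau was seen.

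*HES4* also fell as *MYB* fell. Its slope was 0.30 ± 0.03 over 48 perturbations (limma, adjusted p = 5.0e-13), rank 13 from the highest, where 81.3% of the 91 genes were called. In the 8 perturbations with *MYB* below -0.5, all of them CRISPRi, *HES4* ran from -0.39 to -0.11 with a median of -0.30 and lay below 0 in all 8. Between -0.5 and -0.1 it was at -0.05 ± 0.07 (n = 10, below 0 in 6). The highest *MYB* dosage was 0.18, and in the perturbations from 0.1 upward *HES4* was at 0.01 ± 0.06 (n = 12). Accordingly the slope was 0.31 ± 0.04 in CRISPRi (adjusted p = 4.0e-07) and 0.07 ± 0.14 in CRISPRa (adjusted p = 0.773), and the difference of the 2 slopes did not pass the threshold (adjusted p = 0.356). The pair of *cis* genes also moved with each other. *MYB* had a slope of -0.33 ± 0.04 on *GFI1B* dosage (limma, adjusted p = 4.3e-09), at -0.15 ± 0.02 in CRISPRi and -1.38 ± 0.20 in CRISPRa, a difference that passed the threshold (1.23 ± 0.16, adjusted p = 5.2e-09). *GFI1B* had a slope of 0.08 ± 0.03 on *MYB* dosage (limma, adjusted p = 0.0020), at 0.02 ± 0.03 in CRISPRi and 0.37 ± 0.11 in CRISPRa (difference -0.35 ± 0.12, adjusted p = 0.0349).

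On *NFE2* dosage no slope of *HES4* was called. It was 0.04 ± 0.03 over 43 perturbations (limma, adjusted p = 0.211), with 68.1% of the 91 genes called. All 43 values of *HES4* lay between -0.12 and 0.08. With the pair of enhancer sgRNAs that lowered *NFE2* most, *HES4* was at -0.12 and 0.05. The sign of the slope was not settled either, being -0.02 ± 0.06 in CRISPRi and 0.01 ± 0.09 in CRISPRa.

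On *TET2* dosage 3.3% of the 91 genes were called, and *HES4* was not among them (slope 0.12 ± 0.05 over 40 perturbations, limma adjusted p = 0.224), although its slope ranked 3 from the highest. The *HES4* values were scattered, from -0.22 to 0.12 in CRISPRi and from -0.20 (TET2_11) to 0.30 (TET2_7) in CRISPRa. The slope passed the threshold with robust regression (0.13 ± 0.04, adjusted p = 0.0325), within the range of 1 copy (0.20 ± 0.05, adjusted p = 0.0306) and without TET2_11 (0.17 ± 0.05, adjusted p = 0.0355). Within a line it was 0.21 ± 0.10 in CRISPRi (adjusted p = 0.247) and 0.01 ± 0.11 in CRISPRa (adjusted p = 0.998).

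*ISG15* responded to *NFE2* instead, and in the opposite direction: it rose as *NFE2* dosage fell. The slope was -0.29 ± 0.03 (limma, adjusted p = 1.4e-10), rank 7 from the lowest and 11 by absolute size of 91 genes. The 2 enhancer sgRNAs NFE2_17 and NFE2_16, at -0.81 and -0.74 of *NFE2*, gave the highest *ISG15* values of that *cis* gene, 0.27 and 0.26. Their deposited distances to the start site, 3681.5 and 3679.5 bp, put both at nearly the same place. No other perturbation had *NFE2* below -0.5. In the 17 perturbations with *NFE2* between -0.5 and -0.1 *ISG15* was at 0.07 ± 0.06 and above 0 in 15, and in the 17 within 0.1 of 0 it was at 0.01 ± 0.04. In the 7 with *NFE2* above 0.1 it was at -0.08 ± 0.04 and below 0 in all 7. Dosage and *ISG15* thus ran in opposite order over the whole range.

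This slope was of like size in both lines, -0.39 ± 0.06 in CRISPRi (adjusted p = 1.6e-05) and -0.38 ± 0.11 in CRISPRa (adjusted p = 0.0199), with a difference of -0.01 ± 0.13 that did not pass the threshold (adjusted p = 0.955). Without the enhancer sgRNAs, in a fit chosen after seeing the data, it was -0.27 ± 0.04 (39 perturbations, limma, adjusted p = 1.1e-06). *COPZ1*, within which NFE2_17 and NFE2_8 lie, was not among the captured genes, so whether these sgRNAs changed it was not tested. A line was the better description of it, since the sigmoid gained nothing (AIC difference -2.89). Fewer genes were called within a line, 26 in CRISPRi and 18 in CRISPRa against 62 over both, and *ISG15* was called in each of these fits.

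The values of *ISG15* did not run in a single direction over *GFI1B* dosage. The slope over both lines was -0.02 ± 0.03 (limma, adjusted p = 0.364), and the values followed a shallow U. All perturbations with *GFI1B* below -0.5 were CRISPRi, and all those from 0.1 upward were CRISPRa. Line and dosage range can thus not be told apart in this shape, and no slope was called within CRISPRa alone. In the 11 perturbations with *GFI1B* below -1, *ISG15* ran from -0.11 to 0.31 with a median of 0.10, and 8 lay above 0. In the 10 between -0.5 and -0.1 it ran from -0.37 to 0.03 with a median of -0.05, and 8 lay below 0, as did both perturbations between -1 and -0.5. In the 13 with *GFI1B* between 0.1 and 0.3 it was at 0.04 ± 0.05, with 10 above 0. A quadratic curve, added after the values were seen, was better than a line by 10.4 units of AIC, with its turning point at a dosage of -0.50, and 71 of 90 genes gained more than 2 units by it. By this gain *ISG15* ranked 48 of 90. The sigmoid, which cannot turn, was better than a line by 2.95 units.

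The fits to parts of the range differed in sign. Within CRISPRi alone the *ISG15* slope was -0.12 ± 0.04 (adjusted p = 0.0178), with a term for the line -0.10 ± 0.03 (adjusted p = 0.0077), and within the range of 1 copy 0.20 ± 0.05 (adjusted p = 0.000439, all by limma). In CRISPRa alone it was 0.08 ± 0.08 (adjusted p = 0.399), and over the 11 perturbations below 1 copy lost it was -0.21 ± 0.18 (adjusted p = 0.638). The dosage range of *GFI1B* was wider than that of the other *cis* genes, from -1.83 to 0.51, and the *ISG15* values above 0 at its lower end lie where no other *cis* gene was lowered as far.

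On *MYB* dosage *ISG15* moved in the same direction as its neighbour, with a smaller slope of 0.10 ± 0.03 (limma, adjusted p = 0.0014), rank 31 from the highest. In the 8 perturbations with *MYB* below -0.5 it was at -0.10 ± 0.07 and below 0 in 7. Within CRISPRi the slope was 0.12 ± 0.04 (adjusted p = 0.0087) and within CRISPRa 0.23 ± 0.15 (adjusted p = 0.232). The lowest *ISG15* value in CRISPRa, -0.26, came from MYB_8 (68 cells), with *MYB* within 0.1 of its NTC level. On *TET2* dosage the slope of *ISG15* was 0.01 ± 0.04 (adjusted p = 0.847), and its 40 values had an SD of 0.0759.

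**Figure D3:**
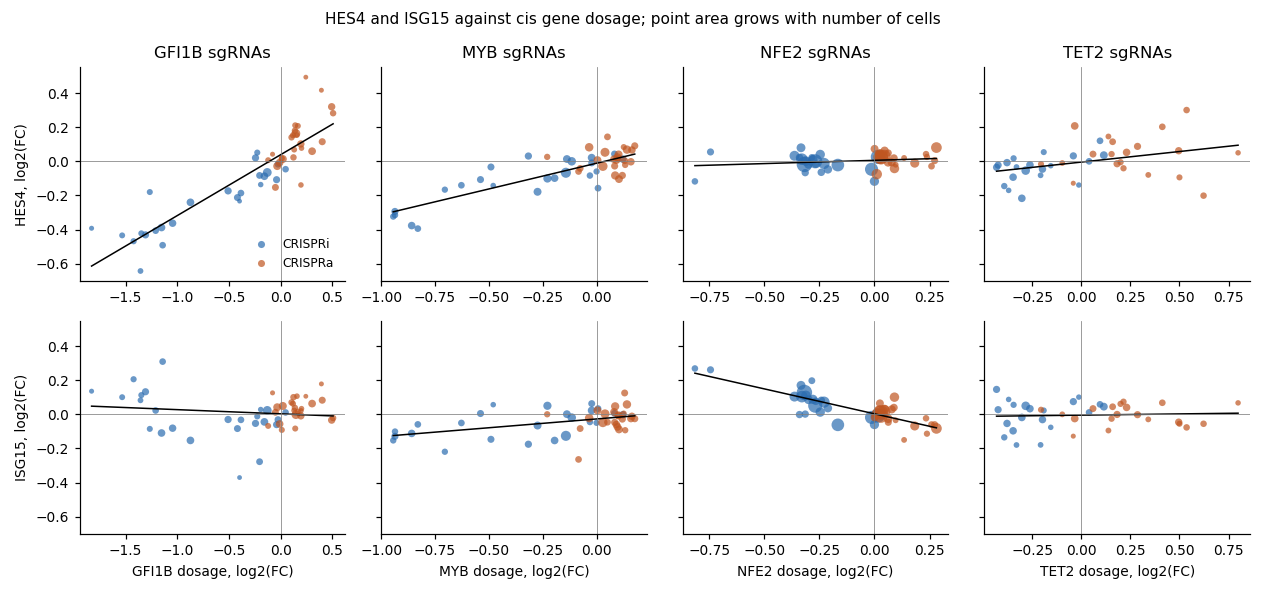
The log2(FC) of *HES4* (upper row) and *ISG15* (lower row) against the dosage of each *cis* gene, both as log2(FC) against NTC cells, with CRISPRi in blue, CRISPRa in orange, point area growing with the number of cells and the fitted line over both lines in black. *HES4* climbs with *GFI1B* (slope 0.36) and *MYB* (0.30), and *ISG15* descends with *NFE2* (-0.29) and is above 0 in 8 of the 11 perturbations with *GFI1B* below -1.

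The slopes of the 2 neighbours were compared with each other by permuting dosage within each line, 100000 times, two-sided against the mean of the permutations, with adjustment over the 4 *cis* genes. Such permutations keep the part of a slope that lies between the lines. The p-values therefore concern only the part within lines, whereas the differences given are of slopes over both lines. On *GFI1B* dosage *HES4* minus *ISG15* was 0.38 ± 0.04 (jackknife SE over sgRNAs; permutation p = 1e-05, the smallest they can give; adjusted p = 4e-05). On *NFE2* dosage it was 0.33 ± 0.05 (permutation test, adjusted p = 4e-05). On *MYB* dosage, where both slopes were positive, that of *HES4* was larger by 0.20 ± 0.05 (permutation test, adjusted p = 0.0212), and on *TET2* dosage the difference was 0.11 ± 0.09 (permutation test, adjusted p = 0.713). So the genes differed in slope for the *cis* genes GFI1B, MYB and NFE2 and were not distinguished for *TET2*.

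Within lines, the difference on *GFI1B* dosage was 0.40 ± 0.06 in CRISPRi and 0.50 ± 0.14 in CRISPRa, with adjusted p of 4e-05 and 0.0126 by the permutation test. On *NFE2* dosage it was 0.37 ± 0.13 in CRISPRi (permutation test, adjusted p = 0.00028) and 0.38 ± 0.14 in CRISPRa (permutation test, adjusted p = 0.051). On *MYB* dosage it was 0.19 ± 0.05 in CRISPRi (permutation test, adjusted p = 0.0111), and in CRISPRa it turned to -0.16 ± 0.22 (permutation test, adjusted p = 0.481).

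**Figure D4:**
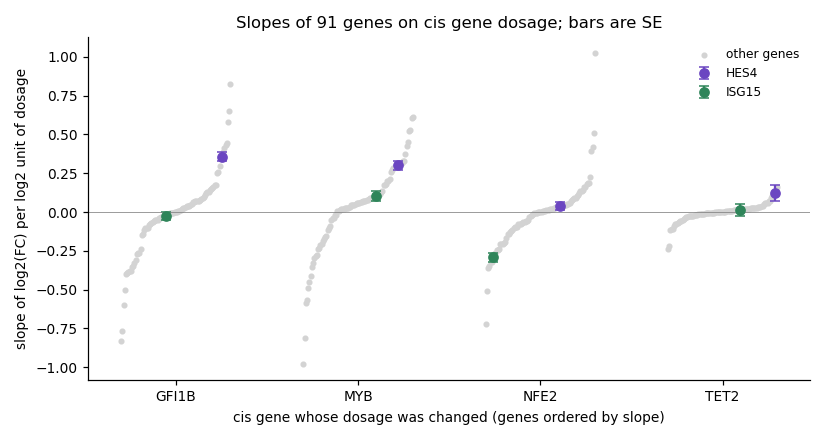
Slopes of log2(FC) on dosage for the 91 genes other than the *cis* gene, ordered by slope for each *cis* gene, with *HES4* in purple, *ISG15* in green, the other genes in grey and bars for the SE. *HES4* is near the upper end for *GFI1B* and *MYB*, and *ISG15* near the lower end for *NFE2*.

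The 2 genes were then set against each other over the sgRNAs of each *cis* gene within each line, as a description without a test, since all points of a line share its NTC cells. Pearson's r was -0.49 (Spearman's rho -0.46) for *GFI1B* in CRISPRi (n = 25) and 0.27 (rho 0.16) in CRISPRa (n = 25). It was 0.34 and 0.30 for *MYB* in CRISPRi and CRISPRa, 0.23 and -0.12 for *NFE2*, and 0.21 and 0.12 for *TET2*. The sign was positive in 6 of the 8 groups, and in 4 of the 8 with at least 30 cells per perturbation.

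After the linear effect of dosage was removed from both genes, r for *GFI1B* in CRISPRi was -0.15 and that for *MYB* in CRISPRi changed from 0.34 to -0.22. With at least 30 cells, r was -0.06 for *GFI1B* in CRISPRa (n = 22) and -0.05 for *TET2* in CRISPRa (n = 19). Ranked among up to 91 partners by r with *HES4*, *ISG15* stood between 14 (*NFE2* in CRISPRi) and 66 (*GFI1B* in CRISPRi and *NFE2* in CRISPRa). Over all 181 perturbations, with each gene centred within its line, r between the neighbours was 0.10, which placed *ISG15* at 40 of 91 among the partners of *HES4* and *HES4* at 33 of 91 among those of *ISG15*.

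**Figure D5:**
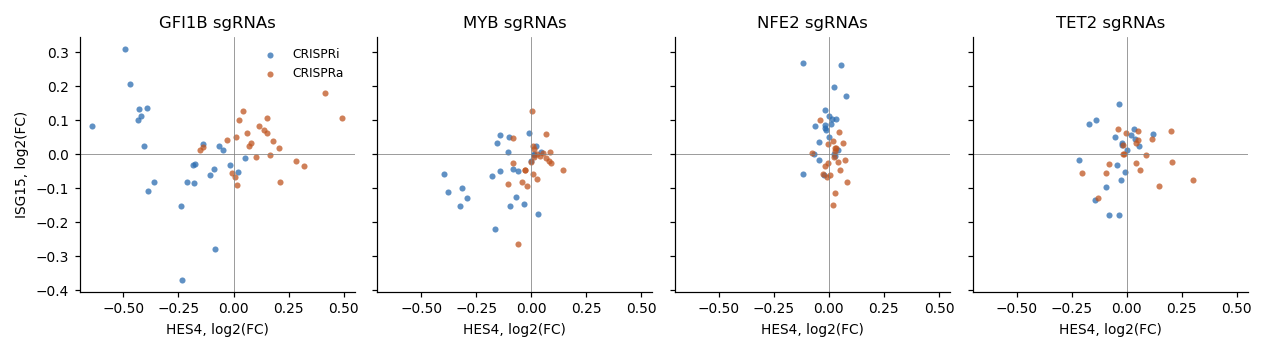
The log2(FC) of *ISG15* (vertical) against that of *HES4* (horizontal) in each perturbation, for each *cis* gene, with CRISPRi in blue and CRISPRa in orange. The points lean from upper left to lower right for *GFI1B* in CRISPRi (r = -0.49), spread along *HES4* for *MYB*, and stand upright for *NFE2*, where *HES4* stayed between -0.12 and 0.08.

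The genes most like *HES4* over the 181 perturbations, by Pearson's r within lines, were *GFI1B* itself (0.67), *PITX1*, a homeobox transcription factor (0.64), and *SPTB*, the beta spectrin of red cells (0.60). Those most opposite were *SPI1*, which encodes the myeloid factor PU.1 (-0.72), *COMMD7* (-0.71) and *DAPK1*, a death-associated kinase (-0.61). For *SPI1* the r was -0.78 in CRISPRi and -0.59 in CRISPRa, whereas for *PITX1* it was 0.80 and 0.27. The correlations of *ISG15* were weaker. The highest were with *CTCFL*, the germline paralogue of CTCF (0.34), *PKP3*, a desmosomal plakophilin (0.32), and the lncRNA gene *UCA1* (0.32), and the lowest with *NFE2* (-0.47), *SRGN*, which encodes the granule proteoglycan serglycin (-0.33), and *TUBB1*, the beta tubulin of platelets (-0.30). The lowest lay mostly in CRISPRi. In CRISPRi and CRISPRa they were -0.55 and -0.15 for *NFE2*, -0.44 and -0.01 for *SRGN*, and -0.39 and -0.01 for *TUBB1*. The highest were 0.37 and 0.25 for *CTCFL*, 0.39 and 0.12 for *PKP3*, and 0.38 and 0.23 for *UCA1*. A *cis* gene enters all of these correlations through its own perturbations, and the points share NTC cells.

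Other genes of the known settings of the pair were mostly outside the panel. *ISG15* was the only measured gene of the interferon and ISGylation list and *HES4* the only one of the Notch and HES list, so neither pathway could be described beyond the gene itself. The other measured basic helix-loop-helix repressor, *BHLHE40*, had a slope of -0.60 ± 0.05 on *GFI1B* dosage (limma, adjusted p = 4.0e-16), opposite to that of *HES4*, and -0.02 ± 0.04 on *MYB* dosage (adjusted p = 0.641). On *NFE2* dosage *BHLHE40* had a slope of -0.09 ± 0.04 (limma, adjusted p = 0.0414).

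Chromosome 1 held 8 other genes of the panel, the nearest of which is *RHD*, 24.3 Mb away. On *GFI1B* dosage 6 of the 8 passed the test, 3 in each direction, and on *MYB* dosage all 8 did, 3 rising with dosage and 5 falling, where 76.9% and 81.3% of all genes were called. On *NFE2* dosage 6 passed, 1 rising and 5 falling, and on *TET2* dosage 1 rose, *RHD* (0.16, limma adjusted p = 0.0243), beside 68.1% and 3.3% of all genes. The red cell antigen gene *RHD* had a slope of 0.43 on *GFI1B* and -0.58 on *MYB* dosage, and *JUN*, an AP-1 subunit gene, had -0.38 and -0.28, so these genes show several sign patterns over the *cis* genes.

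Markers of cell types moved with the same dosages. Among the erythroid markers, *HBZ* (zeta globin) and *ALAS2* (the first enzyme of erythroid haem synthesis) rose with *GFI1B* dosage, as *HES4* did, at slopes of 0.16 and 0.15, both called by limma. On *MYB* dosage both fell with dosage, at -0.41 and -0.98, whereas *HES4* rose with it. *GFI1B*, itself on the erythroid list, rose with *MYB* dosage as *HES4* did, at 0.08. On *NFE2* dosage the slopes were -0.09 for *HBZ*, -0.32 for *ALAS2* and 0.14 for *GFI1B*, all called by limma. Of the 10 genes of that list 4 were measured. Of 8 markers of other cell types 2 were measured. *SPI1* had slopes of -0.83 on *GFI1B*, -0.23 on *MYB* and 0.18 on *NFE2* dosage, and *TUBB1* of 0.83, -0.81 and 1.03. The part of these changes in those of *HES4* and *ISG15* was not tested. *GAPDH*, the high control, had slopes of -0.01 on *GFI1B*, 0.06 on *MYB* and 0.02 on *NFE2* dosage, of which the last 2 passed the test (limma, adjusted p = 1.1e-14 and 0.000983).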

How the data were processed

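The authors captured 92 genes and the dCas9 transcripts from cells of both lines on 2 lanes (10X 5′ chemistry), counted UMIs with Cell Ranger, kept cells with a single sgRNA, and used Seurat to normalize them and to set the cells of each sgRNA against NTC cells of the line. The authors deposited log2 fold changes. The low control *LHX3* repeats one value in 80 CRISPRi and 85 CRISPRa perturbations, and whether a constant was added before the log is not given in the sources used here. Their methods describe a natural log, and the values were taken as log2, as the column is named. The sgRNA distances to start sites, deposited by the authors as a score in bp, were not tested. The authors' own p-values, FDRs and calls were not used.

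For each *cis* gene, the log2(FC) of 91 genes was fitted on dosage over both lines with limma 3.58.1 (R 4.3.3, robust eBayes, Benjamini-Hochberg, threshold 0.05). Jackknife SEs leave out each sgRNA. AIC counted 3 parameters for a line and 5 for a sigmoid fitted on a grid of 81 midpoints and 45 slopes. *LHX3* was left out of the AIC counts. Alternatives were fits with a line term, within each line, weighted by cells, with at least 30 cells, without attenuated (mismatched) sgRNAs, within 1 copy, robust, with sgRNA as a block, and without each sgRNA. The code was tested on simulated data. The named genes were the members, the *cis* genes, *GAPDH*, the 3 highest and 3 lowest by r with each member, and the measured members of the marker, pathway and chromosome 1 lists. A gene of the marker list is not reported here. *HES4*, *ISG15* and these lists were chosen with earlier results of these data known. Genome features came from GENCODE 44 and RefSeq on GRCh38, the build that the panel's header names. Figures were drawn with matplotlib 3.10.9 and permutations with numpy 2.4.6 (Python 3.11.15).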

Additional observations from a re-analysis of the deposited data

Results flagged for a closer look

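The slope of *HES4* on *GFI1B* dosage differed between the lines, by -0.30 ± 0.14 for CRISPRi minus CRISPRa (limma, adjusted p = 0.0448), with slopes of 0.28 in CRISPRi and 0.58 in CRISPRa. With at least 30 cells per perturbation the difference was -0.17 (adjusted p = 0.223). The 2 highest *HES4* values in CRISPRa came from GFI1B_21 (0.49, 12 cells) and GFI1B_24 (0.42, 15 cells), which are attenuated sgRNAs. The lines also covered different dosages, so line and dosage range cannot be told apart here.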

How the results depend on the processing

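No paired analysis was possible because the lane numbers that the labels share across cDNA, sgRNA and hashing libraries name parts of the same pool and the deposited table has no value per lane. Leaving out each sgRNA in both lines kept the sign of the *HES4* and *ISG15* slopes on *GFI1B*, *MYB*, *NFE2* and *TET2* dosage and the side of the threshold, except for *HES4* on *TET2*, which ranged from 0.0746 to 0.173 and passed without TET2_11. The genes called on *TET2* dosage ranged from 1 to 5. In CRISPRa alone, the slope of *ISG15* on *GFI1B* was 0.0751, of *HES4* on *MYB* 0.0665 and of *ISG15* on *MYB* 0.23, *HES4* minus *ISG15* was -0.16 on *MYB* and 0.38 on *NFE2*, and 34 genes were called on *MYB*, 18 on *NFE2* and 0 on *TET2* (limma, 2 at an unadjusted p under 0.05). In CRISPRi alone, the slope of *ISG15* on *GFI1B* was -0.12 and of *HES4* on *NFE2* -0.0203, and 26 genes were called on *NFE2* and 0 on *TET2* (limma, 16 unadjusted). With a line term these 2 slopes were -0.10 and -0.0155, with 20 genes called on *NFE2* and 0 on *TET2* (limma, 9 unadjusted). Within 1 copy, *ISG15* on *GFI1B* had 0.20 and *HES4* on *TET2* 0.20. Robust regression gave 0.13 for *HES4* on *TET2* and 6 genes called. Weighting by cells gave -0.0010 for *ISG15* on *TET2*. Chosen after seeing the data, *HES4* on *GFI1B* below 1 copy lost had 0.0528, and *ISG15* there had -0.21. Also chosen then were the line difference of *HES4* with at least 30 cells, -0.17, and *ISG15* on *NFE2* without enhancer sgRNAs, -0.27. The cause of these changes was not tested. The fits within a line had fewer perturbations and shorter dosage ranges than those over both. The sgRNA block and leaving out attenuated sgRNAs moved no slope of either gene across the threshold.

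All fold changes of a line rest on 1 culture and on shared NTC cells, so an error in the NTC level shifts every value of that line alike and enters slopes over both lines. Dosage was measured in the same cells as the responses. Perturbations with few cells, 11 at the fewest, carry the least precise values.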
